A study of Rattus norvegicus with 65 samples.

Results

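Macrophages live in the healthy heart between the muscle cells, and some of them come along when cardiomyocytes are isolated for culture. The 10 genes described here are read mainly in such cells: Ptprc, Csf1r, Cd68, Cd14, Cd163, Mrc1, Adgre1, C1qa, C1qb and C1qc. They were listed as markers of resident macrophages and looked up by symbol, and all 10 were among the 14554 genes of the count table. Their levels were followed through all 10 groups of the study.

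Macrophages depend on a growth factor receptor, CSF1R, whose ligands CSF1 and IL-34 are made by neighbouring cells. Resident macrophages of the heart take up dead cells and debris, and they carry scavenger receptors such as the mannose receptor MRC1 and CD163. They are also a main source of complement C1q, which tags debris for uptake. CD14 has a different task, since it presents bacterial lipopolysaccharide and some signals of damage to the receptor TLR4 and is also part of the monocyte program.

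RNA with a polyA tail was sequenced from primary cardiomyocytes of newborn rats that had been kept without serum overnight and then received 10 mM 5FU (5-fluorouracil), 2.5 mM Ace (acetaminophen) or 1.25 μM Dox (doxorubicin) for 6 or 24 hours. DMSO1 was the vehicle control of 5FU, and DMSO2, with less DMSO, was the shared control of Ace and Dox, so the Ace and Dox differences below lean on the same control libraries. The 65 libraries gave 6 per group for DMSO1 and 5FU at both times and for Ace at 6 hours, and 7 per group for the rest. Cells from several litters had been pooled at plating, which makes each library a culture of the same pool rather than an animal of its own, and every p-value below measures the spread between cultures. Neither purity of the cultures nor a batch or date is given in the labels. Library totals ran from 14332827 to 25738297 estimated counts.

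Levels are given as CPM (a count divided by the normalized size of its library, scaled to the same total for every library) after TMM scaling, and folds, standard errors (SE) and false discovery rates (FDR) come from edgeR's quasi-likelihood test over all 14554 genes, with a call at an FDR below 0.01. Transcript lengths were not used, so no level of one gene is set against that of another. In RNA from a mixed culture, fewer macrophages and less of a transcript per macrophage cannot be told apart. Nor can either be told from a change in other cells that read the same gene.

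The label of the list was checked against other genes. Of 27 further macrophage markers 22 were in the table. Among them Lyz2, the lysozyme of myeloid cells, reached 44.8 to 60.8 CPM in the DMSO1 libraries at 24 hours, Stab1, a scavenger receptor, 22.9 to 34.5 CPM, and Cybb, the catalytic part of the phagocyte NADPH oxidase, 20.6 to 24.1 CPM. Of 15 markers of other blood cells, among them those of B cells and neutrophils, 4 had rows here: Cd3d, Kit, Klrd1 and Ncr1. Cd3d, a chain of the T cell receptor complex, was at 0 in 54 of the 65 libraries. Ncr1 and Klrd1, receptors of natural killer cells, had counts in every library, 15 to 144 (mean 2.19 CPM) for Ncr1 and 3 to 38 (mean 0.853 CPM) for Klrd1. Kit, at 35.2 to 45.6 CPM in the same DMSO1 libraries, is also read in cells other than mast cells.

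Dox library 7 at 24 hours stood apart. It had the highest total, and its summed smooth muscle and pericyte markers were 549 CPM, against 1507 to 1853 CPM in the other 6 libraries of its group. It was also the lowest of its group for the summed fibroblast markers (1943 CPM, next 3209). The same held for cardiomyocyte (12906 CPM, next 14888) and endothelial markers (157 CPM, next 175). The Dox tests of the 10 genes at 24 hours were therefore also fitted without it. All 10 genes were then still called in the same direction, with log2 fold changes from -2.30 for Mrc1 to 0.71 for Cd14.

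Because the 10 genes are read together in macrophages, their promoter windows were searched for short motifs on both strands, from 250 bases before to 50 bases after the start of each RefSeq gene in the rat assembly GRCr8. The letters GAGGAA, the core bound by PU.1 (the factor encoded by Spi1, which macrophages need), stood in 7 of the 9 windows at hand, or 77.8%, against 27.6% of 33469 promoters of the same length. The longer form GAGGAAGT, which contains the core, stood in 0 of the 9 and in 2.42% of all promoters. The AP-1 motif TGANTCA stood in 1 of the 9, that of Cd68, and in 7.33% of all. C1qc had no window, and C1qa and Cd163 held none of these motifs. The following 46 bases around 1 match in each of 5 genes on different chromosomes, picked after their values were seen, show how the core sits in these windows. They are written 5′ to 3′ on the strand of the gene, with the core in capitals as GAGGAA or as TTCCTC where it lies on the other strand.
Mrc1, chr17:82157670-82157715, plus strand, core at -35 to -30 from the start: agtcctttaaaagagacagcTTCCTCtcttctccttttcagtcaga
Adgre1, chr9:2329213-2329258, plus strand, core at -207 to -202: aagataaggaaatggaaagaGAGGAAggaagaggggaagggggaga
Cd68, chr10:54882443-54882488, minus strand, core at -27 to -22: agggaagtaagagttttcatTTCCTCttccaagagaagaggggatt
Ptprc, chr13:52259884-52259929, minus strand, core at -163 to -158: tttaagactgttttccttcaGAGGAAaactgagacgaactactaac
C1qb, chr5:154407892-154407937, minus strand, core at -90 to -85: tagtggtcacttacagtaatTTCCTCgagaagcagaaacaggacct
A match is a run of letters and not a shown binding site. Spi1 itself was at 4.84 to 6.33 CPM in DMSO2 and at 3.75 to 6.17 CPM in Dox at 24 hours (log2 fold change -0.18, SE 0.099, FDR 0.0898).

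Over time in the control cultures the macrophage genes went up. At 24 against 6 hours, with DMSO1 and DMSO2 averaged, 7 of the 10 rose and 0 fell, against 32.7% of all genes called higher and 31.9% called lower. The median log2 fold change was 0.55 for the 10 genes and 0.012 for all genes. The rise was not particular to macrophage genes. Of 10 fibroblast markers 9 were called higher and 0 lower (median 0.48). Endothelial markers gave 5 higher and 2 lower of 9 (0.37), and smooth muscle and pericyte markers 6 higher and 3 lower of 10 (0.32). Of 11 cardiomyocyte markers 3 were higher and 5 lower (-0.067). Adgre1, which encodes the macrophage surface receptor F4/80, rose 3.11-fold (log2 fold change 1.64, SE 0.10, FDR 4.38e-22), Mrc1 2.01-fold and Cd68 1.80-fold. Ptprc rose 1.73-fold, C1qa 1.66-fold, Csf1r 1.29-fold and C1qb 1.27-fold. For Ptprc, Cd68, Adgre1, Mrc1 and C1qa each of the 13 control libraries at 24 hours lay above each of the 13 at 6 hours. The share of all genes separated in this way is not given, here or in the comparisons below. No such separation is thus shown to be particular to these genes. Cd14 (log2 fold change -0.16, FDR 0.0807), Cd163 (0.37, FDR 0.234) and C1qc (0.17, FDR 0.159) were not called.

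The amount of DMSO went with no called difference in these genes. With 10 genes and the shares of all genes given here, 0 calls do not set the list apart. Between DMSO1 and DMSO2, 0 of 10 were called at 6 hours, when 9.87% of all genes were higher and 6.60% lower in DMSO1, and 0 of 10 at 24 hours, when 0.137% were higher and 0.295% lower. No gene of the 10 had an unadjusted p under 0.05 at either time, against 5318 of all genes at 6 hours and 2370 at 24 hours, and the DESeq2 Wald test also called 0 at both. The log2 differences lay between -0.25 and 0.19 at 6 hours and between -0.22 and 0.15 at 24 hours.

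**Figure D1:**
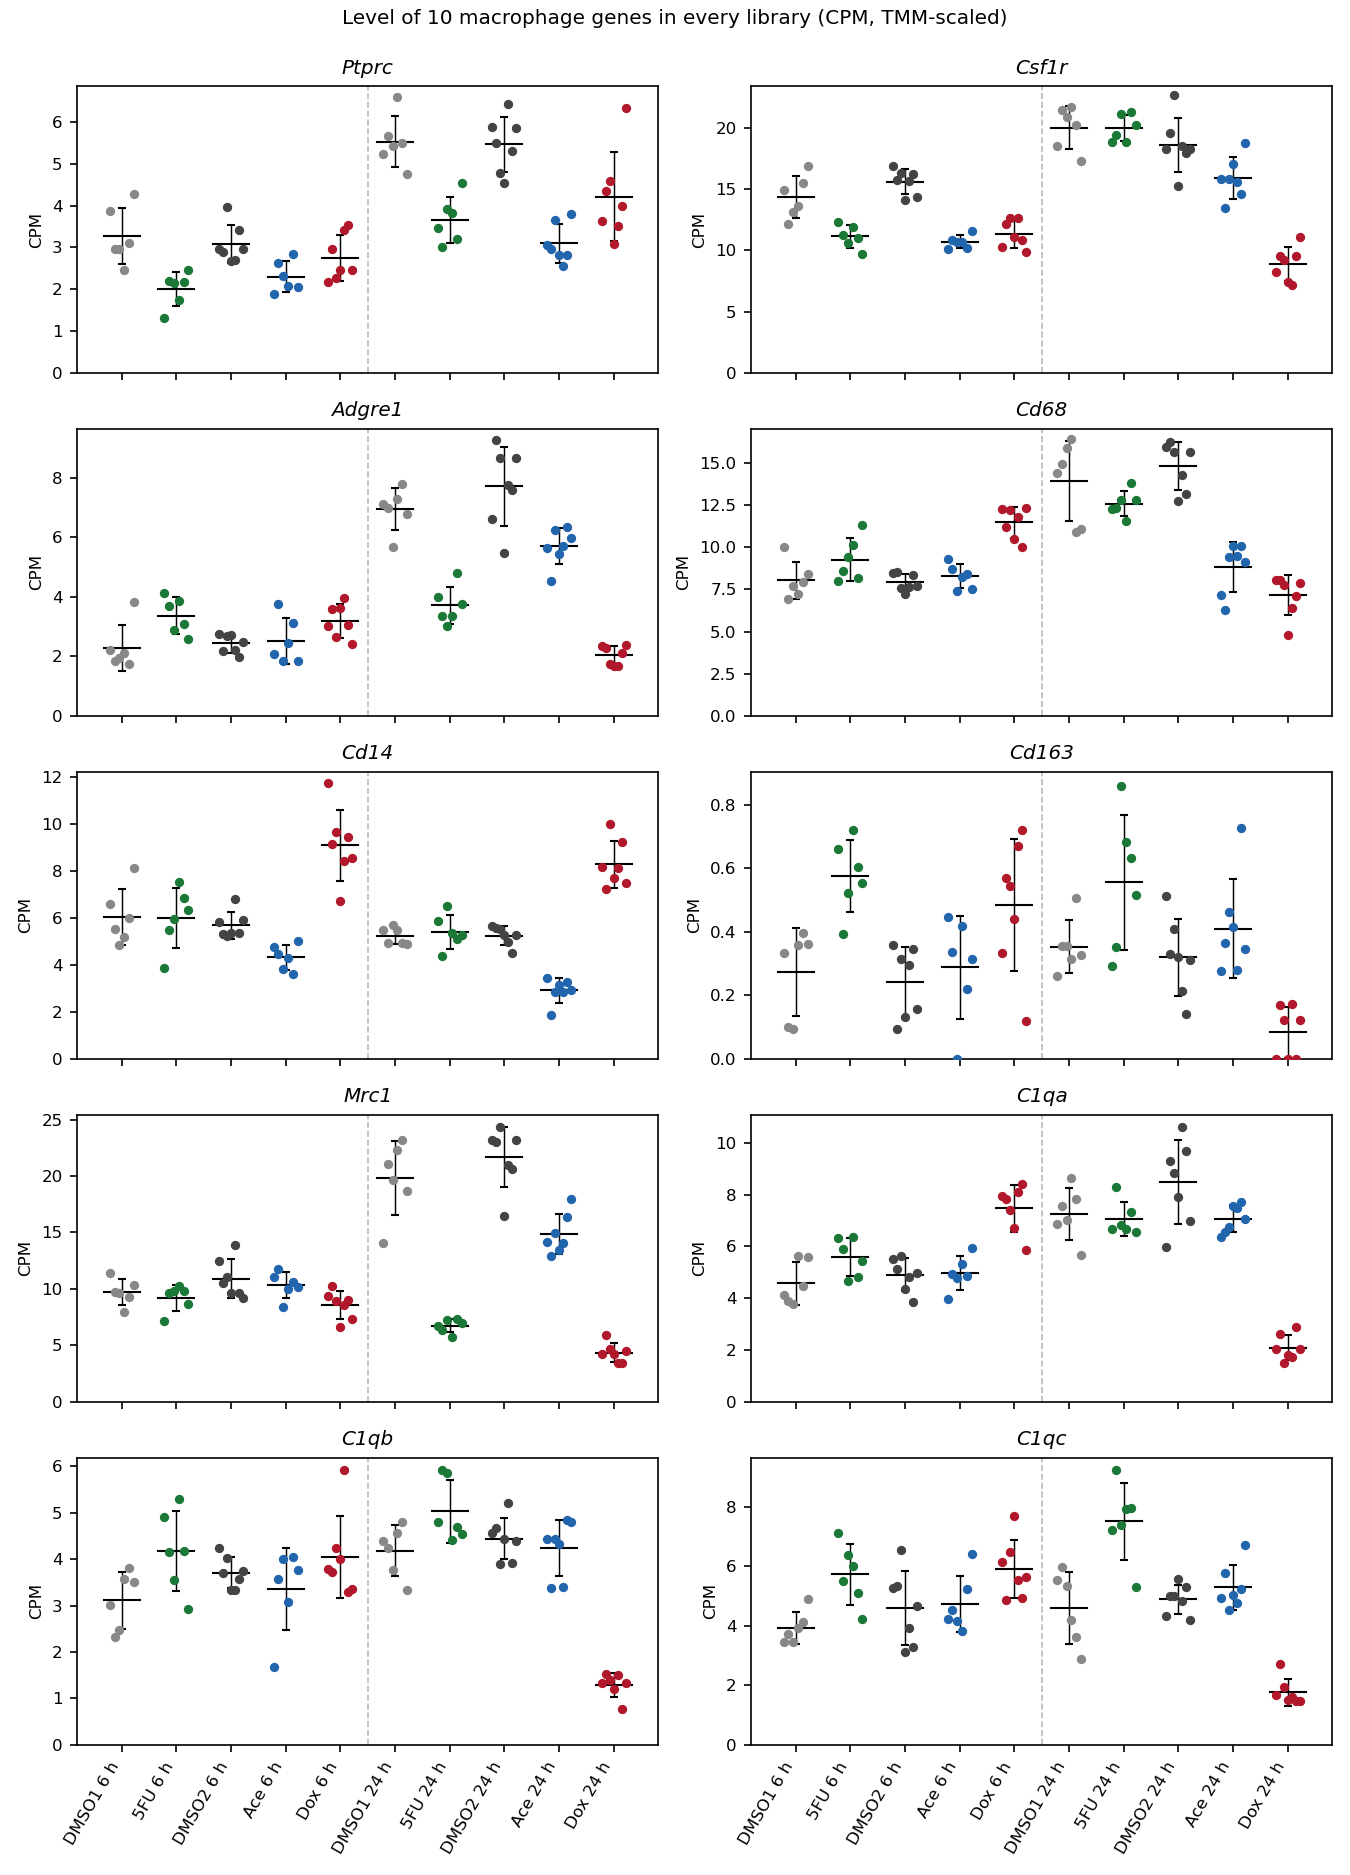
Level of each of the 10 genes (vertical axis, CPM after TMM scaling, from 0) in the 65 libraries, with 1 point per library, the group mean as a line and the SD as an error bar, and with 6 hours left and 24 hours right of the dashed line. In 8 of the 10 panels the lowest group mean is that of Dox at 24 hours, the exceptions being Ptprc and Cd14. The share of all genes with their lowest mean in that group is not given.

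Under no drug did the 10 genes move as 1 block, and Dox at 24 hours came nearest to it. With 5FU, 2 of 10 rose and 2 fell at 6 hours (23.4% of all genes higher, 24.5% lower), and 1 rose and 3 fell at 24 hours (28% higher, 27.8% lower). With Ace, 0 rose and 2 fell at 6 hours (16.5% higher, 15.2% lower), and 0 rose and 6 fell at 24 hours (18.2% higher, 19.1% lower). With Dox, 3 rose and 2 fell at 6 hours (31.5% higher, 32.7% lower), and 1 rose and 9 fell at 24 hours (40.4% higher, 41% lower). The shares for 5FU are near or under the background in both directions. These shares of all genes are also the background for the counts of the other lists below. Those that lie well over the background are the falls under Ace and Dox at 24 hours, where the 10 genes had median fold changes of -0.35 with Ace and -1.62 with Dox on the log2 scale, against -0.00082 and 0.0028 over all genes.

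The change between the times was also tested as the drug effect at 24 hours minus that at 6 hours. For Dox this difference was called lower for 8 of the 10 genes and higher for 0, when 34% of all genes were called higher and 30.8% lower. For 5FU it was called higher for 1 and lower for 2 genes (20.3% and 19.2% of all genes), and for Ace higher for 0 and lower for 1 (5.58% and 6.06%). The effect of Dox on these 8 genes was thus lower at the later sampling.

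**Figure D2:**
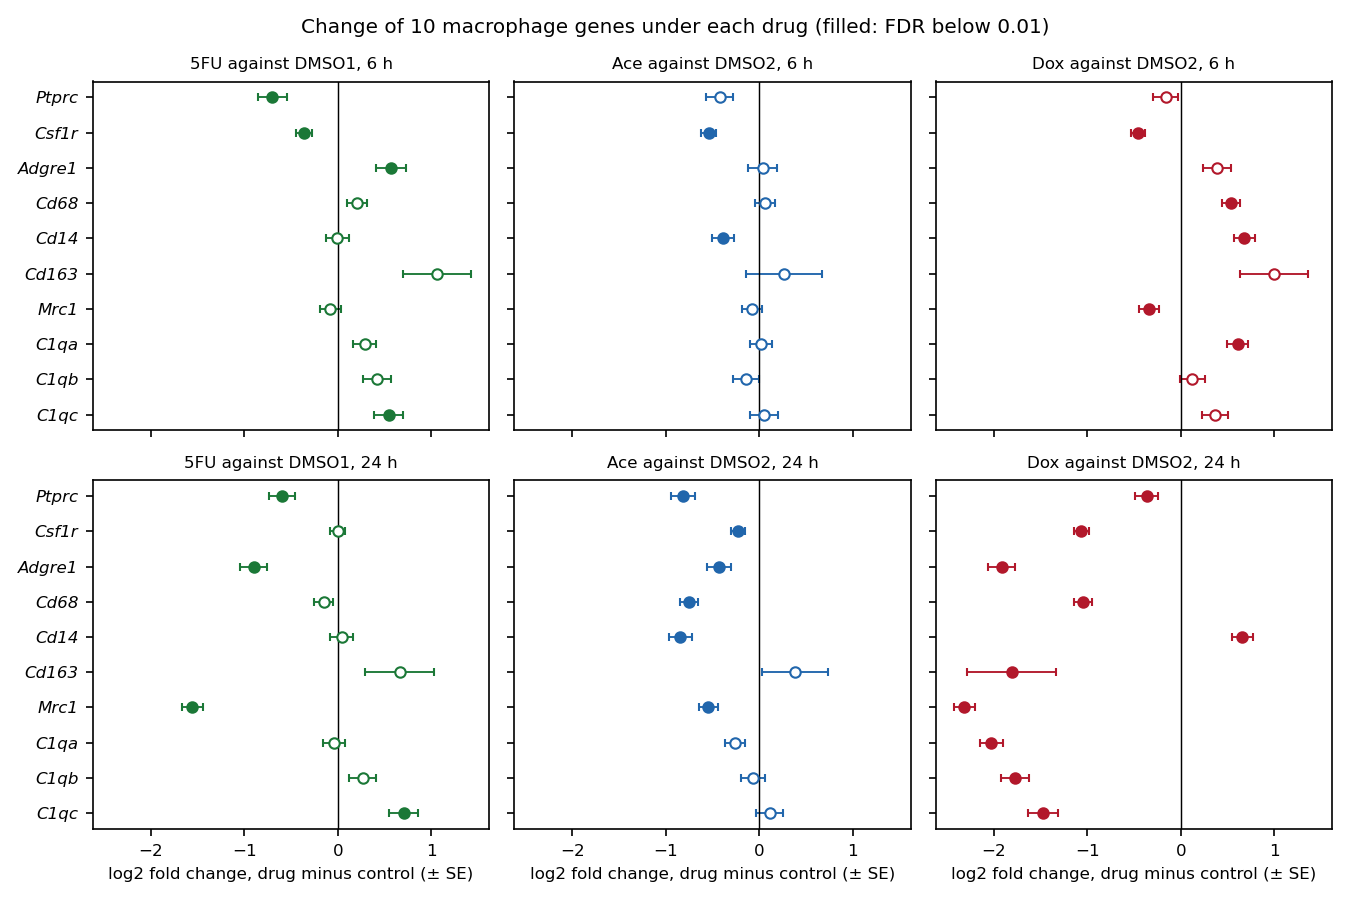
Log2 fold change of the 10 genes (horizontal axis, drug minus its own control, with the SE as error bar) for each drug and time, filled where the FDR was below 0.01. Dox at 24 hours is the panel with all 10 points filled, 9 of them left of 0 and Cd14 at 0.66.

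Csf1r carries the survival signal of macrophages. At 6 hours its level was 14.1 to 16.8 CPM (median 15.7, n = 7) in DMSO2, 10.1 to 11.6 CPM (median 10.7, n = 6) in Ace and 9.87 to 12.7 CPM (median 11.1, n = 7) in Dox. Every Ace and every Dox library lay below every DMSO2 library, 1.46-fold lower on average with Ace (log2 fold change -0.54, SE 0.081, FDR 1.2e-07) and 1.37-fold lower with Dox (-0.46, SE 0.078, FDR 5.47e-07). With 5FU it was at 9.68 to 12.3 CPM (median 11.2, n = 6), against 12.2 to 16.9 CPM (median 14.3, n = 6) in DMSO1, a fall of 1.29-fold (FDR 0.000165) with ranges that overlapped by a little. Csf1r was thus called lower with each of the 3 drugs at 6 hours, with Ace and Dox set against the same 7 control libraries.

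By 24 hours the 3 drugs had parted. Csf1r in 5FU (18.8 to 21.3 CPM, median 19.9) lay within the range of DMSO1 (17.3 to 21.7 CPM, median 20.6), with a log2 fold change of -0.0034 (SE 0.081, FDR 0.975), and the 24-hour effect of 5FU was higher than its 6-hour effect by 0.36 (SE 0.12, FDR 0.00742), a call lost in 10 of 24 fits without 1 library. In Ace it was at 13.5 to 18.8 CPM (median 15.8), overlapping DMSO2 at 15.2 to 22.6 CPM (median 18.3), with a fall of 1.17-fold that barely passed (FDR 0.00969) and was not called in 11 of the 14 fits that left out 1 library. In Dox it was at 7.16 to 11.1 CPM (median 9.23), below every control library, a fall of 2.09-fold (log2 fold change -1.06, SE 0.079, FDR 1.89e-19).

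The ligands of the receptor and the factors that switch macrophage genes on were followed in a list of 11 genes, 10 of them in the table. With Dox at 24 hours 7 rose and 2 fell (40.4% of all genes higher, 41% lower). With Dox at 6 hours 6 rose and 2 fell (31.5% and 32.7%). Csf1, one of the ligands, was at 66.8 to 83.9 CPM in DMSO2 and 201 to 249 CPM in Dox at 24 hours, with no overlap (3.02-fold higher, FDR 1.01e-21). Il34, the other, fell 6.22-fold in the same comparison (FDR 2.21e-13), from 1.71 to 3.45 CPM down to 0.117 to 0.736 CPM. Ligand and receptor therefore moved in opposite directions for Csf1 and in the same direction for Il34. Among the factors, Irf8 rose 3.68-fold and Cebpa 21.3-fold with Dox at 24 hours, and both are also read outside macrophages. With 5FU at 24 hours 1 of the list rose (Csf1, 1.43-fold) and 4 fell, and with Ace 0 rose and 4 fell, among them Spi1 (1.43-fold lower, FDR 1.37e-05). At 6 hours 2 rose and 2 fell with 5FU, and 1 rose and 4 fell with Ace.

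Ptprc encodes CD45, a phosphatase on the surface of nucleated blood cells, and is the widest marker of the list. At 6 hours it was at 2.45 to 4.28 CPM (median 3.04) in DMSO1 and 1.32 to 2.47 CPM (median 2.16) in 5FU, 1.62-fold lower (log2 fold change -0.70, SE 0.15, FDR 6.81e-05), with ranges that touched. At 24 hours 5FU (3.02 to 4.54 CPM, median 3.64) lay wholly below DMSO1 (4.77 to 6.60 CPM, median 5.47), 1.51-fold lower (FDR 0.000156). Ace at 24 hours (2.57 to 3.81 CPM, median 2.96) lay wholly below DMSO2 (4.55 to 6.43 CPM, median 5.50), 1.76-fold lower (FDR 2.68e-07). The leukocyte marker therefore fell with 5FU at both times and with Ace at 24 hours, while Ace at 6 hours (1.88 to 2.84 CPM against 2.67 to 3.97 CPM) missed the threshold (log2 fold change -0.42, FDR 0.0138).

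The fall of Ptprc with Dox at 24 hours was small and unsteady. Its libraries were at 3.07 to 6.34 CPM (median 3.99) and overlapped the control, and the fall of 1.29-fold (log2 fold change -0.36, SE 0.13, FDR 0.00681) was not called in 10 of the 14 fits without 1 library. The highest value belongs to library 7, without which the log2 fold change was -0.48 (FDR 0.000437). At 6 hours Dox (2.17 to 3.54 CPM, median 2.47) lay within reach of DMSO2 (2.67 to 3.97 CPM, median 2.96), with a log2 fold change of -0.16 (FDR 0.284).

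Adgre1 had the largest rise of the 10 genes over time in the controls and was lower with each drug at 24 hours. At 24 hours it was at 5.69 to 7.79 CPM (median 7.04) in DMSO1 and 3.01 to 4.79 CPM (median 3.57) in 5FU, 1.87-fold lower (log2 fold change -0.90, SE 0.15, FDR 2.46e-07). In Dox it was at 1.67 to 2.38 CPM (median 2.11), against 5.46 to 9.25 CPM (median 7.76) in DMSO2, 3.76-fold lower (log2 fold change -1.91, SE 0.14, FDR 2.96e-19). In both comparisons no drug library reached the lowest control. In Ace it was at 4.52 to 6.35 CPM (median 5.70), overlapping the control, 1.35-fold lower (FDR 0.00396), a call lost in 4 of 14 fits without 1 library and with library size only (FDR 0.01).

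The 6-hour values of Adgre1 were much closer together. In 5FU they were 2.57 to 4.13 CPM (median 3.39), against 1.73 to 3.82 CPM (median 2.03) in DMSO1, 1.48-fold higher (FDR 0.00171), so 5FU raised this transcript at 6 hours and lowered it at 24 hours, with a difference between the effects of -1.47 (SE 0.22, FDR 6.02e-08). That 6-hour call was lost when only the compared groups were fitted (FDR 0.0259). In Dox it was at 2.41 to 3.96 CPM (median 3.06), against 1.98 to 2.76 CPM (median 2.49) in DMSO2, with a log2 fold change of 0.39 (FDR 0.0164), and the Dox effect was lower at 24 hours by 2.30 (SE 0.21, FDR 1.65e-15). In Ace at 6 hours it was at 1.84 to 3.75 CPM (median 2.27) and was not called (log2 fold change 0.037, FDR 0.877).

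Cd68, a glycoprotein of lysosomes and late endosomes, turned from a rise to a fall under Dox. At 6 hours Dox was at 10.0 to 12.3 CPM (median 11.8), above every DMSO2 library at 7.23 to 8.52 CPM (median 7.68), 1.45-fold higher (log2 fold change 0.53, SE 0.097, FDR 2.07e-06). At 24 hours it was at 4.82 to 8.04 CPM (median 7.78), below every DMSO2 library at 12.7 to 16.2 CPM (median 15.6), 2.06-fold lower (log2 fold change -1.05, SE 0.097, FDR 2.5e-15). The groups did not overlap at either time, and the difference between the effects was -1.58 (SE 0.14, FDR 5.09e-16).

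Ace acted on Cd68 only late. At 6 hours it was at 7.44 to 9.31 CPM (median 8.33), within the spread of the control (log2 fold change 0.061, FDR 0.673). At 24 hours it was at 6.29 to 10.1 CPM (median 9.44), below every control library, 1.68-fold lower (log2 fold change -0.75, SE 0.095, FDR 1.05e-09). The difference between the effects was -0.81 (SE 0.14, FDR 1.09e-05), the one such difference called for Ace among the 10 genes. With 5FU, Cd68 was at 7.99 to 11.3 CPM against 6.92 to 9.99 CPM at 6 hours (log2 fold change 0.21, FDR 0.0853) and at 11.6 to 13.8 CPM against 10.9 to 16.4 CPM at 24 hours (-0.15, FDR 0.191), and was called at neither time.

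Cd14 was the only one of the 10 genes called higher with Dox at both times, by edgeR's test, and the only one called higher at 24 hours. It was at 5.23 to 6.83 CPM (median 5.35) in DMSO2 and 6.75 to 11.7 CPM (median 9.17) in Dox at 6 hours, 1.60-fold higher (log2 fold change 0.68, SE 0.11, FDR 1.37e-07), with the lowest Dox library just below the highest control. At 24 hours Dox (7.25 to 10.0 CPM, median 8.14) lay above every control library (4.5 to 5.65 CPM, median 5.30), 1.58-fold higher (log2 fold change 0.66, SE 0.11, FDR 2.41e-07). The size of the rise was much the same at both times, with a difference of -0.023 (SE 0.16, FDR 0.904).

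Ace had the opposite sign. Cd14 was at 3.60 to 5.02 CPM (median 4.38) with Ace at 6 hours, below every control library, 1.31-fold lower (FDR 0.00576), a call lost in 6 of the 13 fits without 1 library. At 24 hours it was at 1.87 to 3.46 CPM (median 2.92), again below every control, 1.80-fold lower (log2 fold change -0.84, SE 0.12, FDR 1.9e-08). With 5FU no change was called, with 3.86 to 7.56 CPM against 4.86 to 8.16 CPM at 6 hours (log2 fold change -0.0047, SE 0.12) and 4.37 to 6.51 CPM against 4.90 to 5.69 CPM at 24 hours (0.040, SE 0.12).

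The genes around CD14 moved in both directions. In a list of 10 genes of the CD14 and TLR4 pathway, 8 of them in the table, 2 rose and 4 fell with Dox at 24 hours. Of all genes 40.4% were called higher and 41% lower there, so these counts do not set the list apart. Tlr4, the receptor to which CD14 hands its ligand, was at 3.16 to 4.39 CPM in DMSO2 and 1.25 to 2.99 CPM in Dox, 1.97-fold lower (FDR 3.23e-07). Lbp, the serum protein that loads CD14, fell as well, with a log2 fold change of -1.96, and so did the adaptor Tirap (-1.29) and Tlr2 (-0.44). Nfkbia, an inhibitor of NF-kappaB that the pathway itself turns on, rose by 0.73 on the log2 scale, and the adaptor Myd88 by 0.44. At 6 hours with Dox 1 of the list rose and 3 fell. With Ace 0 rose and 3 fell at 6 hours and 0 rose and 4 fell at 24 hours, and with 5FU 2 rose and 1 fell at 6 hours and 2 rose and 4 fell at 24 hours.

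Mrc1 had the largest fall of the 10 genes with both 5FU and Dox at 24 hours. With 5FU it was at 5.78 to 7.32 CPM (median 6.87), against 14 to 23.2 CPM (median 20.4) in DMSO1, 2.94-fold lower (log2 fold change -1.56, SE 0.11, FDR 1.63e-18). With Dox it was at 3.40 to 5.95 CPM (median 4.23), against 16.4 to 24.4 CPM (median 23) in DMSO2, 4.97-fold lower (log2 fold change -2.31, SE 0.11, FDR 1.03e-28). In either case the highest drug library stayed below the lowest control. With Ace it was at 12.9 to 18 CPM (median 14.1) and overlapped the control, 1.46-fold lower (FDR 4.62e-06).

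These falls were late. At 6 hours Mrc1 in 5FU (7.11 to 10.2 CPM, median 9.68) covered much of the range of DMSO1 (7.98 to 11.4 CPM, median 9.66), with a log2 fold change of -0.081 (FDR 0.561). In Ace (8.41 to 11.8 CPM, median 10.4) the log2 fold change against DMSO2 (9.23 to 13.9 CPM, median 10.5) was -0.076 (FDR 0.611). In Dox (6.64 to 10.3 CPM, median 8.91) it was -0.34 (SE 0.11, FDR 0.00338), a call lost in 3 of 14 fits without 1 library. The effects at 24 hours were lower than those at 6 hours by 1.47 for 5FU (SE 0.16, FDR 1.88e-11) and by 1.97 for Dox (SE 0.15, FDR 4.99e-18).

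Cd163, the scavenger receptor for haptoglobin bound to hemoglobin, was near the limit of detection. Its counts were 0 to 16 per library, under 10 in 50 of the 65 libraries and 0 in 4 of them. With Dox at 24 hours the 7 libraries held 0 to 3 counts each and 11 in all, against 3 to 9 each and 41 in all in DMSO2, a ratio of CPM of 0.273 (exact 95% interval for counting error only, 0.126 to 0.540). The fit gave a log2 fold change of -1.81 (SE 0.48, FDR 0.000488). The groups overlap at 3 counts.

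At 6 hours Cd163 pointed the other way with 2 of the drugs without passing the test. With 5FU there were 66 counts against 34 in DMSO1 (ratio 2.11, interval 1.37 to 3.29, log2 fold change 1.06, SE 0.37, FDR 0.011), and with Dox 60 against 34 in DMSO2 (ratio 2.03, interval 1.31 to 3.18, log2 fold change 0.99, SE 0.36, FDR 0.012). The Dox effect was lower at 24 than at 6 hours by 2.80 (SE 0.60, FDR 3.64e-05). With Ace the gene was called at neither time (log2 fold change 0.26 at 6 hours and 0.38 at 24 hours), nor with 5FU at 24 hours (0.66, FDR 0.108).

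The list around CD163 covers hemoglobin and heme handling, with 5 of 7 genes in the table. With Dox at 24 hours 3 rose and 2 fell, when 40.4% of all genes were called higher and 41% lower. Hmox1, which breaks heme down, was at 56.5 to 69.3 CPM in DMSO2 and 153 to 378 CPM in Dox, 4.02-fold higher (FDR 6.48e-22), while Hp (haptoglobin) and Blvrb (biliverdin reductase B) had log2 fold changes of -0.64 and -0.74. With Ace 2 rose and 0 fell at 6 hours and 4 rose and 0 fell at 24 hours, and with 5FU 4 rose and 0 fell at 6 hours and 2 rose and 0 fell at 24 hours. Dox at 6 hours gave 1 in each direction. Hmox1 is read in most cell types, so its level is not one of macrophages alone.

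C1q is built of the chains A, B and C in equal numbers, and their genes C1qb, C1qc and C1qa stand next to each other on rat chromosome 5. With Dox at 24 hours all 3 fell, and no Dox library reached its control. In this comparison 41% of all genes were called lower, and the share of all genes without overlap is not given. C1qa went from 5.99 to 10.6 CPM (median 8.84) in DMSO2 down to 1.51 to 2.87 CPM (median 2.02), 4.07-fold lower (log2 fold change -2.02, SE 0.12, FDR 1.28e-23). C1qb went from 3.9 to 5.21 CPM (median 4.44) down to 0.762 to 1.53 CPM (median 1.34), 3.42-fold lower (-1.77, SE 0.15, FDR 1e-16). C1qc went from 4.20 to 5.56 CPM (median 5.00) down to 1.45 to 2.72 CPM (median 1.62), 2.78-fold lower (-1.47, SE 0.16, FDR 1.07e-12). Csf1r fell 2.09-fold and Ptprc 1.29-fold in the same libraries, and the difference between genes was not tested.

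Earlier the chains had not fallen. At 6 hours C1qa in Dox was at 5.88 to 8.40 CPM (median 7.83), above every DMSO2 library at 3.86 to 5.65 CPM (median 4.98), 1.52-fold higher (FDR 2.38e-06). C1qb (3.30 to 5.92 CPM against 3.33 to 4.25 CPM) had a log2 fold change of 0.13 (FDR 0.408) and C1qc (4.87 to 7.68 CPM against 3.11 to 6.54 CPM) of 0.37 (FDR 0.0193). The Dox effect was lower at 24 than at 6 hours by 2.63 for C1qa (FDR 4.9e-22), by 1.90 for C1qb (FDR 1.38e-12) and by 1.84 for C1qc (FDR 2.37e-11).

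With 5FU it was C1qc that stood out, and upwards. At 24 hours it was at 5.31 to 9.25 CPM (median 7.65), against 2.87 to 5.96 CPM (median 4.76) in DMSO1, 1.63-fold higher (log2 fold change 0.70, SE 0.15, FDR 5.9e-05), and only the lowest 5FU library lay within the control range. At 6 hours it was at 4.23 to 7.11 CPM against 3.43 to 4.90 CPM, 1.46-fold higher (FDR 0.00212), a call lost without 5FU library 1. C1qb had log2 fold changes of 0.42 at 6 hours (FDR 0.0123) and 0.27 at 24 hours (FDR 0.0969), and C1qa of 0.29 (FDR 0.039) and -0.043 (FDR 0.766). So 5FU at 24 hours left a culture with less Mrc1, Adgre1 and Ptprc and more C1qc than its control. With Ace no chain was called at either time, and the log2 fold changes ran from -0.26 (C1qa at 24 hours, FDR 0.0374) to 0.11.

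The other complement genes, 9 of 11 in the table, gave mostly falls at 24 hours. With 5FU 0 rose and 8 fell, with Ace 0 rose and 6 fell, and with Dox 1 rose and 5 fell. Of all genes 28%, 18.2% and 40.4% were called higher and 27.8%, 19.1% and 41% lower in these comparisons. The proteases C1r and C1s, partners of C1q, had log2 fold changes of -0.46 and -0.86 with 5FU, -0.89 and -1.22 with Ace and -0.84 and -0.71 with Dox. Serping1, their inhibitor, had -1.12, -1.57 and -2.21. At 6 hours 2 rose and 2 fell with 5FU, 1 rose and 5 fell with Ace, and 3 rose and 2 fell with Dox. In the controls over time 5 rose and 2 fell. Fibroblasts also make C1r, C1s and Serping1, and their markers are given further on.

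The balance between genes of the list was also taken within each library, as the log2 ratio of their counts with 0.5 added, which does not depend on library scaling. These ratios were chosen after the values had been seen and are given as a description, with no test. C1qc over Mrc1 was -2.69 to -1.33 (mean -2.13) in DMSO1 at 24 hours and -0.40 to 0.54 (mean 0.14) in 5FU, a difference of 2.27, or 4.83-fold, with no overlap. In Dox at 24 hours it was -1.61 to -1.09 (mean -1.30), against -2.46 to -1.56 (mean -2.14) in DMSO2, so the 2 groups overlapped there by a small margin. Between 6 and 24 hours in the controls the mean went from -1.29 to -2.14, so that the 24-hour control was itself shifted towards Mrc1.

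Cd14 over Csf1r gave the other large shift. It was -1.64 to -1.19 (mean -1.45) in DMSO2 at 6 hours and -0.71 to 0.20 (mean -0.33) in Dox, a difference of 1.13. At 24 hours it was -2.03 to -1.52 (mean -1.81) in DMSO2 and -0.56 to 0.18 (mean -0.092) in Dox, a difference of 1.72, or 3.30-fold. With Ace at 24 hours it moved the other way, to -2.83 to -2.14 (mean -2.45). In each of these 3 comparisons no drug library lay within the control range.

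Among the C1q chains the balance moved less. C1qa over C1qc was 0.30 to 1.11 (mean 0.69) in DMSO1 and -0.25 to 0.30 (mean -0.074) in 5FU at 24 hours. C1qa over C1qb was 0.11 to 0.52 (mean 0.39) in DMSO2 and 0.45 to 1.34 (mean 0.89) in Dox at 6 hours.

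**Figure D3:**
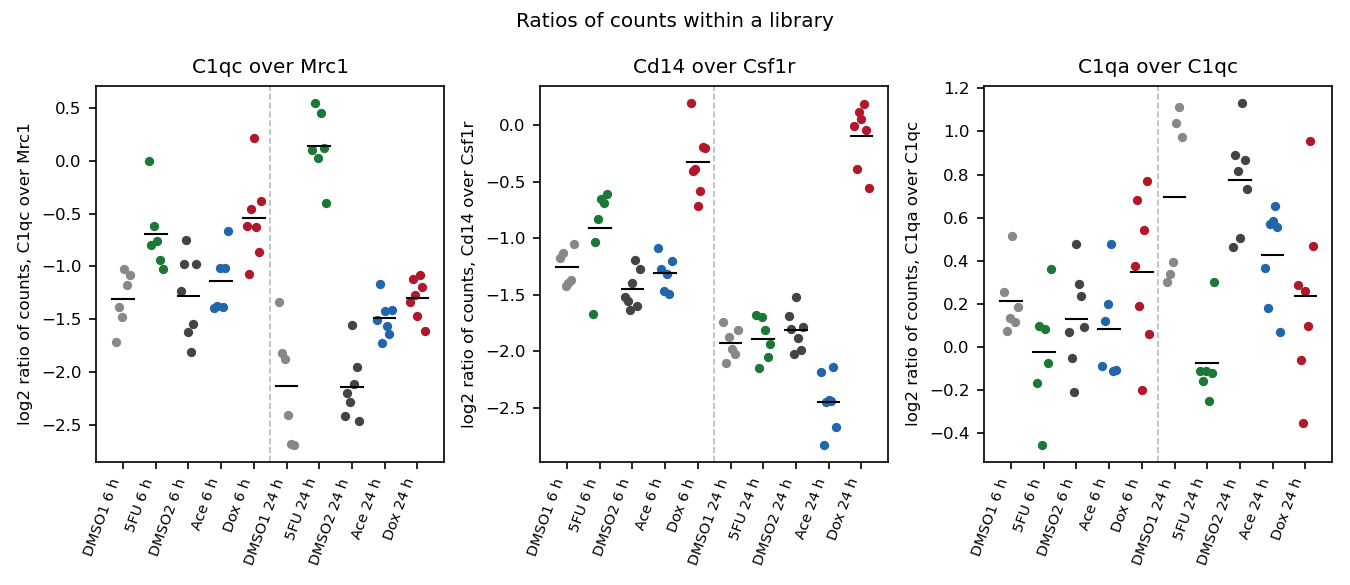
Log2 ratio of the counts of 2 genes within a library (vertical axis, 0.5 added to each count) in the 65 libraries by group, with 1 point per library and the mean as a line. C1qc over Mrc1 is highest in 5FU at 24 hours (mean 0.14), and Cd14 over Csf1r is highest in Dox at 24 hours (mean -0.092).

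The order of the groups differed from gene to gene. Dox at 24 hours was the lowest group for Csf1r, Cd68, Adgre1, Cd163, Mrc1, C1qa, C1qb and C1qc. How many of all genes also had their lowest mean there is not given, and 41% were called lower than in DMSO2. The lowest was Ace at 24 hours for Cd14 and 5FU at 6 hours for Ptprc. The highest was a 24-hour control for Ptprc and Csf1r (DMSO1) and for Cd68, Adgre1, Mrc1 and C1qa (DMSO2), Dox at 6 hours for Cd14, 5FU at 6 hours for Cd163, and 5FU at 24 hours for C1qb and C1qc. The ratio of the highest to the lowest group mean ran from 2.07 for Cd68 to 4.99 for Mrc1, leaving aside Cd163 with its low counts. For Ptprc, Cd68, Adgre1 and Mrc1 the 24-hour DMSO1 and DMSO2 groups held the top places, with ranges that overlapped, and for Csf1r the ranges of DMSO1, 5FU and DMSO2 at 24 hours overlapped at the top. Summed over the 10 genes, a measure that Csf1r and Mrc1 weigh most in, the level at 24 hours was 75.7 to 97.6 CPM in DMSO1, 68.4 to 76.2 CPM in 5FU, 77.9 to 99.8 CPM in DMSO2, 58.1 to 77.6 CPM in Ace and 33.4 to 44.5 CPM in Dox.

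Libraries of the same group also differed from each other, and those differences were compared between genes after the group mean had been taken away. Of the 45 pairs among the 10 genes 42 had a positive Pearson r over the 65 libraries, with a median of 0.22, and 16 had an adjusted p below 0.05 (two-sided permutation test with 100000 shuffles within groups, Benjamini-Hochberg over the 45 pairs). Pairs of other genes were not counted, so these counts are not shown to be particular to the list. With library size only 12 pairs passed, and 15 with a prior count of 0.5 or without the Dox libraries. Csf1r was paired most often. With Adgre1 it gave r = 0.45 and rho = 0.39 (permutation p = 0.00028 and 0.00209, adjusted 0.0126 and 0.0108), and r was 0.42 without the 2 libraries farthest from the median of Csf1r. With Mrc1 r was 0.43 and rho 0.43 (adjusted permutation p = 0.0195 and 0.0108). With C1qa r was 0.43 and rho 0.48 (adjusted permutation p = 0.0195 and 0.0108).

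For Cd14 and the C1q chains r was near 0. Cd14 with C1qa gave r = 0.011 (permutation p = 0.931), with C1qb r = -0.022 (permutation p = 0.878) and with C1qc r = -0.11 (permutation p = 0.357). Cd14 did vary with Cd68 (r = 0.40, rho = 0.38, adjusted permutation p = 0.0195 and 0.0114), although r was 0.27 without the 2 farthest libraries. Within the C1q genes C1qb and C1qc gave r = 0.38 and C1qa and C1qc r = 0.37 (adjusted permutation p = 0.0195 for each), and C1qa with C1qb gave r = 0.30 (adjusted permutation p = 0.0712). All these r are moderate, part of each gene's spread is counting error, and a shared depth or composition of a library moves all genes at the same time. The within-group variance over that of counting alone was 1.15 for Cd163, 2.03 to 3.33 for 8 genes and 4.12 for Mrc1.

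**Figure D4:**
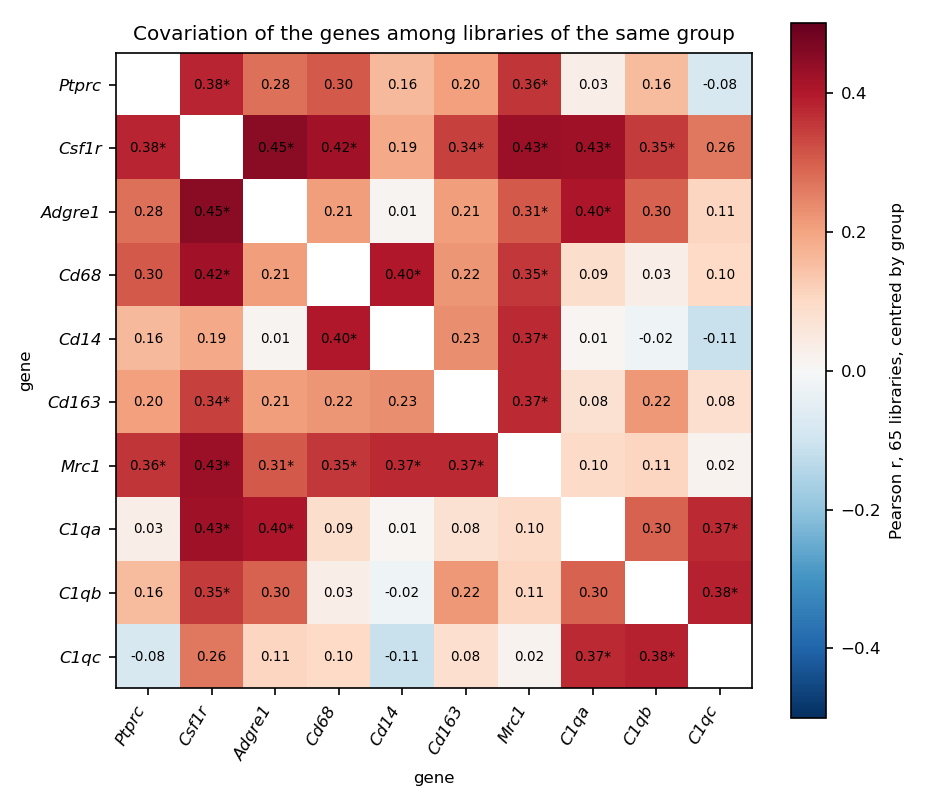
Pearson r between each pair of the 10 genes over 65 libraries after the group means were taken away, in colour from blue (negative) to red (positive), with an asterisk at an adjusted permutation p below 0.05. Csf1r has 7 asterisks, more than Cd14, whose values with the C1q chains lie between -0.11 and 0.011.

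Genes outside the list were ranked by their likeness to it. Over the 10 group means, the gene most like the mean of the 10 z-scored profiles was Fcer1g, the signalling chain shared by Fc receptors of myeloid cells (r = 0.986, over 11419 genes with a mean count of at least 50), followed by Selenon (0.967) and Ech1 (0.959). Fcer1g was at 5.62 to 8.98 CPM in DMSO2 and 1.99 to 3.03 CPM in Dox at 24 hours. With only 10 points 67 genes had an r over 0.9, and the list of the top 10 also held Trdn and Ckm, genes of muscle. Within groups the most alike was Pf4, a chemokine of platelets and macrophages (r = 0.54 over 65 libraries, where the 99th percentile of all genes was 0.38), followed by Cavin4 (0.52) and Amotl2 (0.52). These r are a description of shared patterns.

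The 22 other macrophage markers in the table were followed in the same way. They gave 14 rises and 0 falls in the controls over time. With Dox at 6 hours 9 rose and 0 fell. At 24 hours 1 rose and 17 fell with 5FU, 0 rose and 18 fell with Ace, and 4 rose and 14 fell with Dox. Of all genes 27.8%, 19.1% and 41% were called lower there. With 5FU the median log2 fold change was thus -0.59 for the wider list and -0.023 for the 10 genes. With 5FU the falls included Msr1 (scavenger receptor A, 3.10-fold lower), Stab1 (2.66-fold), Trem2 (2.35-fold) and Lyz2 (1.42-fold), and the rise was Fcgr1a, a high-affinity receptor for IgG (1.41-fold).

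With Dox at 24 hours the falls of the wider list included Trem2 (3.01-fold lower), Fcer1g (2.91-fold), Tyrobp, the adaptor that TREM2 signals through (2.52-fold), and Lyz2 (2.23-fold). The rises included Fcgr1a (2.01-fold), Mertk, a receptor for dying cells (1.52-fold), and Ms4a7 (2.21-fold). Ms4a7 had only 0 to 16 counts per library over the series and was at 0 in 3 libraries. Fcgr1a and Mertk had mean counts of 51.1 and 121. Cd14 was therefore not alone in rising. With Ace Trem2 was 2.23-fold and Lyz2 1.53-fold lower, and Stab1 was not called (log2 fold change -0.12, FDR 0.357). At 6 hours 1 rose and 3 fell with either 5FU or Ace.

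The lists on what macrophages secrete and take up were more mixed. Of the 12 chemokine and cytokine genes measured, 3 rose and 2 fell with 5FU, 3 rose and 3 fell with Ace, and 5 rose and 2 fell with Dox at 24 hours. Ccl2, which draws in monocytes, rose with each drug at that time, 1.73-fold with 5FU, 1.45-fold with Ace and 2.25-fold with Dox. Of the 8 genes of efferocytosis, the uptake of dying cells, 2 rose and 5 fell with 5FU, 0 rose and 6 fell with Ace, and 4 rose and 3 fell with Dox. Of the 7 genes of monocytes and antigen presentation 0 rose with any drug at 24 hours, and 1, 3 and 2 fell with 5FU, Ace and Dox. The shares of all genes called higher were 28%, 18.2% and 40.4%, and those called lower 27.8%, 19.1% and 41%.

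Markers of the other cell types moved at the same time, and their part in the results above was not tested. At 24 hours the 10 fibroblast markers gave 0 rises and 9, 10 and 9 falls with 5FU, Ace and Dox, with medians of -1.38, -1.31 and -2.19 on the log2 scale, and their summed level was 5191 to 5860 CPM in 5FU, 7288 to 9324 CPM in Ace and 1943 to 4093 CPM in Dox, against 10022 to 19995 CPM in DMSO1 and 15208 to 18997 CPM in DMSO2. The 9 endothelial markers gave 0, 0 and 1 rises and 7, 6 and 8 falls, and Cldn5, a junction protein of endothelium, was at 0 in 8 libraries of the series. Their summed level was 189 to 217 CPM in 5FU, 235 to 370 CPM in Ace and 157 to 225 CPM in Dox, against 284 to 385 CPM in DMSO1 and 369 to 473 CPM in DMSO2. The 11 cardiomyocyte markers gave 1, 1 and 0 rises and 7, 4 and 10 falls. Their summed level was 12906 to 18079 CPM in Dox, against 41111 to 53922 CPM in DMSO2. Library 7 gave the lowest Dox value of the fibroblast, endothelial and cardiomyocyte sums. The 10 smooth muscle and pericyte markers gave 2, 0 and 3 rises and 7, 6 and 6 falls. Of all genes 28%, 18.2% and 40.4% were called higher and 27.8%, 19.1% and 41% lower with 5FU, Ace and Dox.

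With Dox at 24 hours the median log2 fold change was -1.62 for the 10 macrophage genes, -0.71 for smooth muscle and pericytes, -1.80 for cardiomyocytes, -2.19 for fibroblasts and -2.62 for endothelial cells. With 5FU it was -0.023 for the 10 genes, -0.41 for cardiomyocytes and -0.71 for endothelial cells, and with Ace -0.35, -0.25 and -0.61. For the 22 other macrophage markers the median was -0.59 with 5FU, -0.77 with Ace and -0.71 with Dox. No list of these cell types was at 0 in all its markers in any group. At 6 hours with DMSO1 against DMSO2, 8 of 10 fibroblast and 8 of 9 endothelial markers were lower in DMSO1. Of all genes 6.60% were lower there. None of the 10 macrophage genes was called, which is near that share. Lower in DMSO1 were also 1 of the 22 other macrophage markers, 3 of the 10 ligands and factors and 2 of the 9 complement genes.

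**Figure D5:**
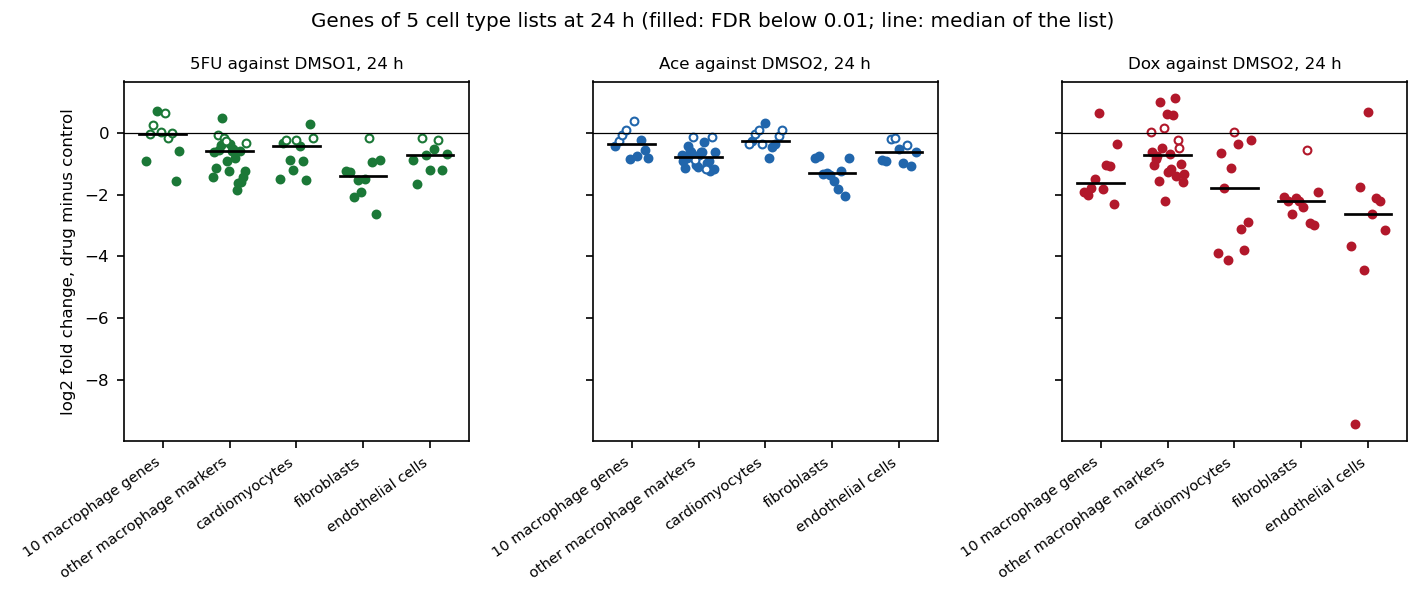
Log2 fold change (vertical axis, drug minus control at 24 hours) of each gene of 5 lists, with 1 point per gene, filled where the FDR was below 0.01, and the median of the list as a line. With Dox the lines stand at -1.62 for the 10 macrophage genes, -0.71 for the other macrophage markers, -1.80 for cardiomyocytes, -2.19 for fibroblasts and -2.62 for endothelial cells.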

How the data were processed

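RNA from 65 cultures in 10 groups was analysed, with groups taken from the sample labels. According to the labels and the study's methods, the authors assigned reads to rat transcripts with kallisto 0.46.0, summed them to genes with tximport, removed genes with low counts, tested with DESeq2 and deposited estimated counts as whole numbers per gene, without normalization. These deposited counts were checked to be whole and to sum to between 14332827 and 25738297 per library (median 19219714). The columns show the group of a library but not its replicate number, so library numbers follow the order of the columns and only name libraries. Among 180 pairs of libraries of the same group the chi-square per gene was at least 2.91, so no library was taken for a copy of another. The authors' own fold changes and p-values were not used, and the metabolite and viability data were not analysed here.

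Symbols for 14009 of 14554 Entrez identifiers came from the RefSeq annotation of GRCr8, whose build differs from that of the study, so that no gene coordinates are given other than those of the promoter windows, which are RefSeq's. A filter of at least 10 counts in at least 1 library removed no gene. In R 4.3.3 with edgeR 4.0.16, counts were scaled with TMM factors (0.859 to 1.07) and fitted in 1 quasi-likelihood model with the 10 groups as terms and no other covariate. The 12 contrasts were each drug against its control at each time, DMSO1 against DMSO2 at each time, 24 against 6 hours in the controls, and the difference between the effects at the 2 times for each drug. P-values were adjusted by Benjamini-Hochberg over all genes, with an FDR below 0.01 as the threshold. CPM values carry no prior count, and log2 CPM for correlations a prior count of 2. Intervals for Cd163 cover counting error only. The steps were tested on simulated data.

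All 10 genes are named in every comparison. Other genes are named beside the count of their list, or as the 10 genes most like the list. The 10 genes and all other lists were chosen with earlier results of these data known, and the ratios and the sequences shown were chosen after their values were seen. Alternatives were the DESeq2 1.42.0 Wald test, its size factors, library size only, filterByExpr, no filter, a fit of the compared groups only, an FDR below 0.1, a log2 fold change of at least 1 in size, and leaving out each library.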

Additional observations from a re-analysis of the deposited data

Results flagged for a closer look

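The effect of a drug at 24 hours differed from its effect at 6 hours for 12 of the 30 combinations of gene and drug, by edgeR's quasi-likelihood test of the difference itself. These were 8 lower for Dox (30.8% of all genes were called lower), 1 higher and 2 lower for 5FU (20.3% and 19.2%) and 1 lower for Ace (6.06%), so that the share lay well over that of all genes for Dox and not for 5FU. For Dox the log2 difference (24 minus 6 hours) was -0.61 for Csf1r, -1.58 for Cd68, -2.30 for Adgre1, -2.80 for Cd163, -1.97 for Mrc1, -2.63 for C1qa, -1.90 for C1qb and -1.84 for C1qc. Of these genes, Cd68 and C1qa were called higher at 6 hours and lower at 24 hours. For 5FU the difference was 0.36 for Csf1r, -1.47 for Adgre1 and -1.47 for Mrc1. For Ace it was -0.81 for Cd68. Cd163 rests on at most 16 counts in a library.

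Of 100 group values tested (10 genes in 10 groups), 7 had a library far from the others by Dixon's criterion, 5 of them high and 2 low, where chance gives about 1 in 20, or 5. High libraries were number 5 of DMSO2 at 6 hours for Cd14 (6.83 CPM, nearest 5.92), number 6 of DMSO1 at 6 hours for Adgre1 (3.82 CPM, nearest 2.20), number 6 of Ace at 24 hours for Cd163 (0.727 CPM or 15 counts, nearest 0.463 CPM), number 5 of Dox at 6 hours for C1qb (5.92 CPM, nearest 4.24) and number 2 of Dox at 24 hours for C1qc (2.72 CPM, nearest 1.93). Low libraries were number 2 of Ace at 24 hours for Cd14 (1.87 CPM, nearest 2.85) and number 6 of Dox at 24 hours for C1qb (0.762 CPM or 13 counts, nearest 1.21 CPM). The causes were not tested.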

How the results depend on the processing

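The counts of called genes stayed within 1.5 times the reported ones for Dox and for Ace against control at 24 hours, for the controls over time and for Dox at 24 minus 6 hours under the other test, scalings and filters, and the 9 falls and 1 rise with Dox at 24 hours became 8 calls with a log2 fold change of at least 1 in size. That criterion left 0 calls for each drug at 6 hours, 1 for 5FU and 0 for Ace at 24 hours, 2 for the controls over time and 0 for the Ace difference between times. An FDR below 0.1 gave 8 calls for 5FU and 8 for Dox at 6 hours and 5 for the 5FU and 5 for the Ace difference between times. The DESeq2 Wald test gave 8 calls for Dox at 6 hours. The Ace difference between times had 2 calls under the Wald test, library size only and the compared groups only.

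Without 1 library at a time the calls were 3 to 6 for 5FU, 1 to 2 for Ace and 4 to 6 for Dox at 6 hours, 4 for 5FU, 4 to 6 for Ace and 9 to 10 for Dox at 24 hours, 7 for the controls, 0 between the DMSO groups at either time, and 2 to 3, 1 to 2 and 8 for the differences between times of 5FU, Ace and Dox. With 5FU at 6 hours there were 3 calls without 5FU library 1 and 6 without DMSO1 library 5. The call of Ptprc with Dox at 24 hours failed under 5 alternatives (FDR 0.0128 to 0.0194). That of Csf1r with Ace at 24 hours failed with library size only (FDR 0.0365), filterByExpr (0.0118) and the compared groups only (0.0207), and that of Adgre1 with library size only (0.01). The call of Csf1r for 5FU between times was lost in 10 of 24 fits without 1 library and with the compared groups only (0.0108).

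Among calls gained, the Wald test called Cd163 (FDR 0.0078) and C1qb (0.0067) higher with 5FU, and Adgre1 (0.00705), Cd163 (0.00722) and C1qc (0.00808) with Dox, all at 6 hours. Signs turned only in values that were not called. Cd14 with 5FU at 6 hours was 0.0064 with DESeq2 size factors, 0.0055 with filterByExpr and 0.0086 with the Wald test, and Csf1r with 5FU at 24 hours 0.012 with filterByExpr. Library size only gave C1qa -0.0095 with Ace at 6 hours, C1qb -0.027 with Dox at 6 hours, Cd14 0.18 for Dox between times, and Ptprc -0.0033, Cd14 -0.0023 and Cd68 -0.067 between the DMSO groups at 6 hours. Without 1 library, ranges that cross 0 were for 5FU at 6 hours Cd14 (-0.084 to 0.094), for Ace at 6 hours Adgre1 (-0.11 to 0.12), C1qa (-0.031 to 0.080) and C1qc (-0.053 to 0.15), for 5FU at 24 hours Csf1r (-0.030 to 0.031), Cd14 (-0.030 to 0.11) and C1qa (-0.087 to 0.014), between the DMSO groups at 6 hours Ptprc (-0.0015 to 0.16), Cd14 (-0.012 to 0.14) and Cd68 (-0.051 to 0.061) and at 24 hours Ptprc (-0.039 to 0.066), Cd14 (-0.034 to 0.030) and C1qc (-0.16 to 0.022), and between times Cd14 for 5FU (-0.061 to 0.12) and Dox (-0.085 to 0.048) and Cd163 (-0.15 to 0.28), C1qb (-0.062 to 0.14) and C1qc (-0.044 to 0.16) for Ace. The cause was not tested for any of these.

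Library size only moved the median over all genes to -0.15 with Dox at 6 hours and to 0.27 (0.065 with TMM) for Dox between times. The share of calls that were higher went from 48.9% to 36.8% for 5FU and from 49.1% to 33.8% for Dox at 6 hours, from 48.8% to 61.4% for Ace at 24 hours, from 59.9% to 29.6% and from 31.7% to 80.7% between the DMSO groups at 6 and 24 hours, and from 47.9% to 77.1% and from 52.5% to 64.8% for Ace and Dox between times. No paired analysis was possible because the columns of the table carry no replicate numbers. Counts limit Cd163 most, which had a mean of 6.75 per library and was left out of 5 of the fits of the compared groups only.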
